A study of Mus musculus with 20 samples.

Results

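Cytosolic ribosomal protein genes encode the proteins of the large and small subunits of the ribosome in the cytoplasm. Their members were taken by gene symbol: Rpl or Rps followed by a digit, plus Rpsa, Rplp0, Rplp1 and Rplp2. Kinases of the Rps6k family, pseudogenes, like-named paralogs and the binding protein gene Rps19bp1 were left out. The rule gave 77 genes, 46 of the large and 31 of the small subunit, measured by 111 probes, of 17178 named genes and 41174 probes on the array. All 77 were well above background on all 20 arrays. The 17 symbols that the rule left out were 10 S6 kinase genes and 7 others, namely Rpl22l1, Rpl36al, Rpl39l, Rpl3l, Rpl7l1, Rps19bp1 and Rps27l.

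RNA came from mouse embryonic fibroblasts, cells grown from embryos, to which serum of female C3H/HeN mice was added for a culture of 24 hours. There were 4 groups of 5 one-colour Agilent arrays: serum of mice given 8 Gy of L/MDR irradiation (20-day set), serum of unirradiated mice of the 20-day set, serum of mice given 4 Gy (10-day set), and serum of unirradiated mice of the 10-day set. L/MDR is written as in the labels, which do not spell it out. Dose and day change together, so an effect of one cannot be told apart from the other. The labels do not say whether arrays of a group stand for separate cultures or separate sera, nor give the strain of the fibroblasts, so the p-values rest on array-to-array spread alone, part of which may be technical.

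Ribosomal proteins are made in near equal amounts and assembled on ribosomal RNA in the nucleolus, and their messages are among the most abundant in growing cells. Many start with a run of pyrimidines (the TOP motif) through which growth signals by way of mTOR set how strongly the messages are translated. Message level and translation are therefore separate quantities, and only message level was measured here.

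RefSeq promoter windows (GRCm38.p6, 250 bases before to 50 after the annotated start) were found for 57 of the 77 genes, 67 windows in all, since some genes have several starts. A run of 6 or more pyrimidines beginning with C within 10 bases of the start was present in 47.8% of these windows, against 19.2% of the 32851 windows of all genes. The stretches below reach from 30 bases before to 20 bases after the start, 5′ to 3′ on the sense strand, with that run in capitals. They are examples chosen with the values known, to show genes with and without a run among those lower and those higher. Rps10, Rps6 and Rpsa were lower with 8 Gy serum, and of these Rpsa has no run. Rps18 and Rpl37a were higher with 8 Gy serum, and of these Rps18 has a run, though its change turned to -0.14 with normexp background correction. Without the 20-day control arrays of slide 4 (arrays 1 to 3) neither Rps18 (0.04) nor Rpl37a (0.08) passed. Rplp0 was lower in the 20-day than in the 10-day controls and has no run. The windows are Rps10 (chr17:27635225-27635274, minus strand), Rps6 (chr4:86857348-86857397, minus strand), Rpsa (chr9:120127736-120127785, plus strand), Rps18 (chr17:33955646-33955695, minus strand), Rplp0 (chr5:115559437-115559486, plus strand) and Rpl37a (chr1:72711230-72711279, plus strand).
Rps10: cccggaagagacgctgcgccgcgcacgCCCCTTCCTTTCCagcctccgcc
Rps6: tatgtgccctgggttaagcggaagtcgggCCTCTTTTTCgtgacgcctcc
Rpsa: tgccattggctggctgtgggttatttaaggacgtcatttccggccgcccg
Rps18: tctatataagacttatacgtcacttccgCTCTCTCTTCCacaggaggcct
Rplp0: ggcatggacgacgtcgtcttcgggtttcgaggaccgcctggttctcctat
Rpl37a: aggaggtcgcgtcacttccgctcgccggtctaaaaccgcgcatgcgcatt
The Rpsa, Rplp0 and Rpl37a stretches hold no such run at the annotated start, which says only that these letters are not in this window. Over both strands of the 300-base windows, CTTTCC was found in 49.3% of the members' windows and 26.6% of all. CCGGAAG, the letters bound by ETS factors, was found in 37.3% against 8.86%. AAGATGGC, the letters bound by YY1, was found in 10.4% against 2.75%, and TATAAA in 8.96% against 13.6%. The motifs were searched one by one and may overlap each other and the run. The 31 genes with a run had a median log2 change of -0.20 for 8 Gy serum and 0.62 between the controls. The 26 genes without one had -0.16 and 0.41. Genes with a run were also dimmer, with a median log2 signal of 6.82 against 7.19. Whether brightness plays a part in this split was not tested.

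Levels are given on the log2 scale with the array's own 75th percentile at 0, so 7 means a probe far brighter than 3 in 4 of the others, and a difference of 1 is a doubling. That percentile lay between 731 and 1464 intensity units over the 20 arrays, 56.8% to 67.2% of probes were well above background, and no spot was marked saturated. Of the 77 genes, 73 were in the brightest 10% of the 20231 genes tested (unnamed probes count as genes of their own). Mean levels over all arrays ran from -2.15 for the probe of Rpl21 to 8.59 for Rps18, with a median of 7.10. Only Rpl21, Rpl31, Rpl14 and Rps19 lay under 4, and 10 genes lay over 8. Rps18 averaged 8.77 ± 0.06 with 8 Gy serum, 8.52 ± 0.24 with control serum of the 20-day set, 8.59 ± 0.07 with 4 Gy serum and 8.46 ± 0.05 with control serum of the 10-day set (SD, n = 5 arrays each). Rpl21 averaged -1.93 ± 0.09, -1.83 ± 0.34, -2.48 ± 0.22 and -2.38 ± 0.05 in the same order of groups. Levels of different probes depend on the probe, so this order is not an order of message number.

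**Figure D1:**
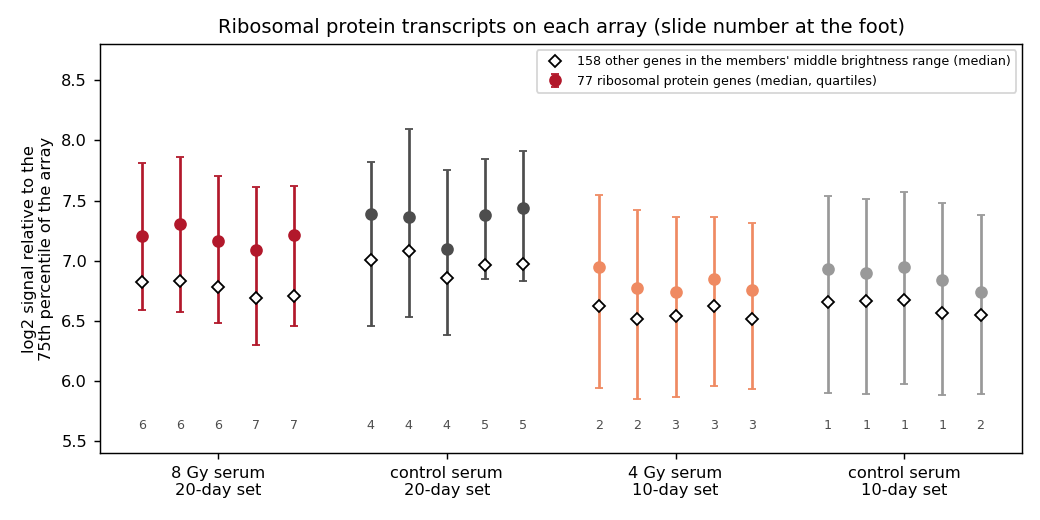
Median log2 signal of the 77 ribosomal protein genes on each array (filled points, with bars from the lower to the upper quartile) and median of 158 other genes between the quartiles of their brightness (open diamonds), with slide numbers at the foot. Both medians were higher on the 20-day arrays than on the 10-day arrays.

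On the arrays of 8 Gy serum the median level of the 77 genes was 7.20 ± 0.08, against 7.33 ± 0.14 with control serum of the 20-day set (SD, n = 5 arrays each). It was 6.81 ± 0.08 with 4 Gy serum and 6.87 ± 0.08 with control serum of the 10-day set (SD, n = 5 arrays each). The members' median was thus higher on each 20-day array than on any 10-day array, as the plot of medians by array shows. The 158 other genes between the quartiles of the members' brightness (levels 6.28 to 7.59) had medians of 6.77 ± 0.07, 6.98 ± 0.08, 6.56 ± 0.05 and 6.62 ± 0.06 in the same order of groups (SD, n = 5 arrays each).

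The series was made to compare cells given serum of irradiated mice with cells given serum of unirradiated mice. With 8 Gy serum, 31 of the 77 genes fell and 4 rose in limma's moderated test at an adjusted p of 0.05, and 42 did not pass. Of all genes tested, 46.0% passed in either direction (28.8% lower and 17.3% higher), and of the ribosomal protein genes 45.5%. The share of called members was therefore near the background of these arrays. The median log2 change was -0.16 over the members and -0.09 over all genes. Set against the 200 genes nearest in brightness, the members' median difference was -0.00, with 38 genes above and 39 below their neighbours. Parts of the members went opposite ways. This median difference was 0.08 for large and -0.11 for small subunit genes, and -0.23 for the 19 dimmest and 0.09 for the 20 brightest members.

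Large subunit genes were lower in 15 cases and higher in 2 of 46, with a median of -0.11. Small subunit genes were lower in 16 cases and higher in 2 of 31, with a median of -0.29. The difference between the subunits was not tested.

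**Figure D2:**
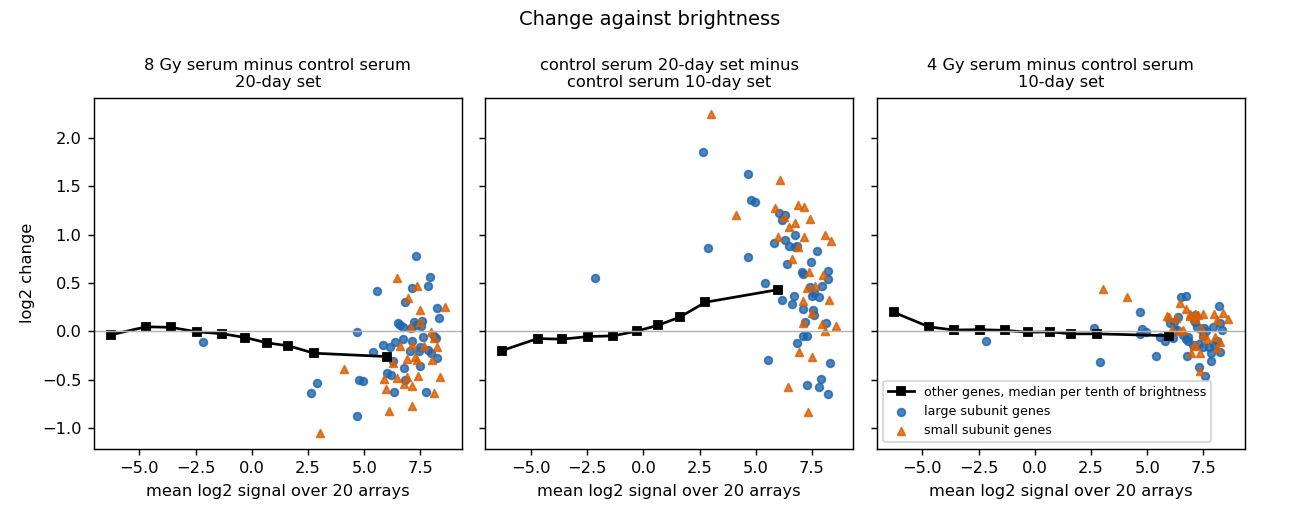
Log2 change of each ribosomal protein gene (circles for the large, triangles for the small subunit) against its mean log2 signal over the 20 arrays, in 3 comparisons. Black squares give the median change of all other genes in each of 10 bins of brightness, which was -0.26 for 8 Gy serum, 0.43 between the controls and -0.04 for 4 Gy serum in the brightest bin.

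Other genes of high signal moved the same way as the members: in the brightest 10% of all genes, non-members had a median of -0.26 for 8 Gy serum, as drawn in the plot of change against brightness. The 158 genes of similar brightness had 66 lower and 8 higher. Within the members, the 19 dimmest genes had 13 lower and 0 higher, with a median of -0.45. The 20 brightest genes had 5 lower and 2 higher, with a median of -0.07.

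Rps19 encodes a small subunit protein needed to mature the small subunit's ribosomal RNA, and is mutated in human Diamond-Blackfan anaemia. Its levels were 3.25, 3.41, 3.16, 3.19 and 3.28 with 8 Gy serum, against 4.05, 4.40, 4.09, 4.46 and 4.51 with control serum of the 20-day set. Every 8 Gy array lay below every control array, and the gap was wider than the spread in either group. The log2 change was -1.05 ± 0.11 (SE, adjusted p = 5.18e-07, limma), a level 2.07-fold lower and the only fold over 2 among the members in this comparison.

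Rps10, another small subunit gene mutated in the same anaemia, had 6.27, 6.40, 6.46, 6.01 and 6.09 with 8 Gy serum, against 7.14, 7.18, 7.25, 6.92 and 6.84 with control serum. The groups did not overlap. The log2 change was -0.82 ± 0.10 (SE, adjusted p = 3.66e-06). Rpl29, whose large subunit protein also binds heparin, had 5.02, 5.05, 4.92, 4.56 and 4.64, against 5.72, 5.96, 5.64, 5.58 and 5.66 in the controls. These groups did not overlap either, and the change was -0.87 ± 0.10 (SE, adjusted p = 2.95e-06).

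Rps6, the small subunit protein phosphorylated by the S6 kinases, had levels of 5.85, 6.16, 5.66, 6.15 and 6.10 with 8 Gy serum and 6.21, 6.54, 6.89, 6.73 and 6.52 with control serum. The highest 8 Gy array lay just under the lowest control array. Its change was -0.59 ± 0.11 (SE, adjusted p = 0.000317).

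Rpl31 and Rpl27a of the large subunit fell by 0.63 (adjusted p = 1.53e-05) and by 0.51 (adjusted p = 1.11e-05). Rpsa, also described as a laminin receptor, fell by 0.49 (adjusted p = 7.27e-05), and Rps23, which lies at the decoding centre, fell by 0.47 (adjusted p = 0.000197). Rpl13a, whose human protein leaves the ribosome in the response to interferon, fell by 0.37 (adjusted p = 0.00327). Rps3, also known as a DNA repair nuclease, had -0.26 ± 0.15 and Rpl10 had -0.16 ± 0.10 (SE), and neither passed (adjusted p = 0.158 and 0.198). Rpl5, which with Rpl11 binds Mdm2 when ribosome assembly is disturbed, passed narrowly at -0.22 ± 0.09 (SE, adjusted p = 0.0468), and its direction turned with cyclic loess (0.17).

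The 49 members without values of their own here had a median log2 change of -0.15 with 8 Gy serum. Among them 17 fell and 0 rose, where 28.8% of all genes fell and 17.3% rose.

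The 4 genes that rose with 8 Gy serum were Rpl19, Rpl37a, Rps27a and Rps18. Rps27a, made as a fusion with ubiquitin, had 6.62, 6.44, 6.47, 6.50 and 6.50 with 8 Gy serum, against 5.53, 5.81, 5.44, 6.58 and 6.39 with control serum. Control arrays 1 to 3 were low, array 4 lay among the 8 Gy values and array 5 just under them. The change was 0.55 ± 0.16 (SE, adjusted p = 0.00974).

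Those 3 control arrays were on one slide (slide 4) and the other 2 on another (slide 5). Without the control arrays of slide 4 the change of Rps27a was 0.02 (adjusted p = 0.855), of Rpl19 0.05 (adjusted p = 0.789), of Rpl37a 0.08 (adjusted p = 0.568) and of Rps18 0.04 (adjusted p = 0.667). In that fit 0 of the 77 genes were higher and 34 were lower, where 46.7% of all genes passed (3916 of 9445 higher). Without the control arrays of slide 5 the counts were 16 higher and 30 lower, where 49.3% of all genes passed (3781 of 9967 higher). The falls of Rps19, Rps10, Rpl29 and Rps6 passed in both fits.

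**Figure D3:**
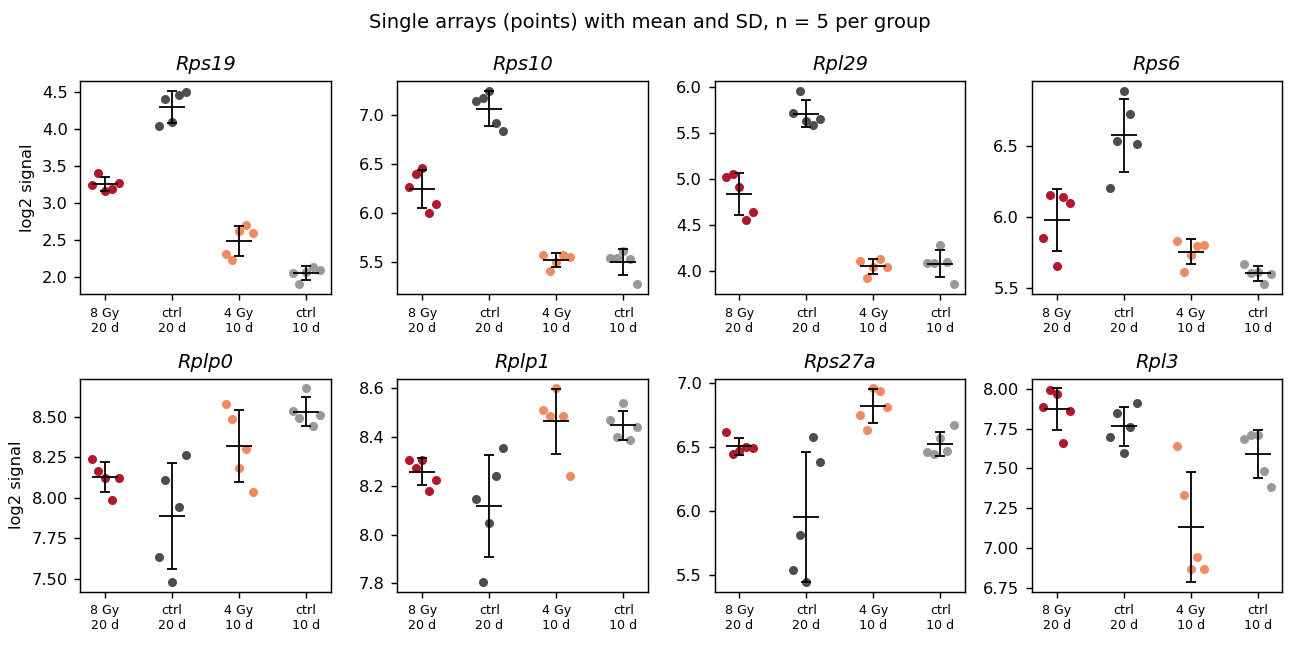
Log2 signal of 8 ribosomal protein genes on the single arrays (points), with the mean and SD of each group (n = 5). Rps19, Rps10 and Rpl29 show no overlap between 8 Gy and control serum in the 20-day set, whereas the Rps27a controls of that set split between slides 4 and 5.

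Slide 4 and slide 5 differed in other members too. Of the 111 member probes, 24 (from 22 genes) were over 0.5 log2 units higher on the slide 5 than on the slide 4 control arrays, and 0 were over 0.5 lower. Of all 26238 probes tested, 12.4% were over 0.5 higher and 9.09% over 0.5 lower. Members' spread was also largest in this group: the median SD over the 77 genes was 0.27 with control serum of the 20-day set, against 0.12 with 8 Gy serum, 0.11 with 4 Gy serum and 0.08 with control serum of the 10-day set. In the 20-day set each slide held 1 group only, so no value within a slide exists. With slide as a random block, 22 members were lower and 1 was higher with 8 Gy serum, where 29.2% of all genes passed. Whether slide plays a part in the falls was not tested.

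Different probes of a gene did not always move alike. The members with several probes had 34 further probes, and 18 of them had the sign of the gene's main probe for 8 Gy serum. Of these further probes 17 fell and 0 rose, where 28.8% of all genes fell and 17.3% rose. Rpl19, a large subunit gene, had a brighter probe that rose by 0.79 and a second that fell by 0.45 on the log2 scale (adjusted p = 0.0248 and 0.000284 in the fit over probes). The brighter probe read 7.17, 6.27, 5.61, 7.97 and 7.17 on the 20-day control arrays, and the second 6.53, 6.65, 6.41, 6.39 and 6.36. The second was steady where the first was not.

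**Figure D4:**
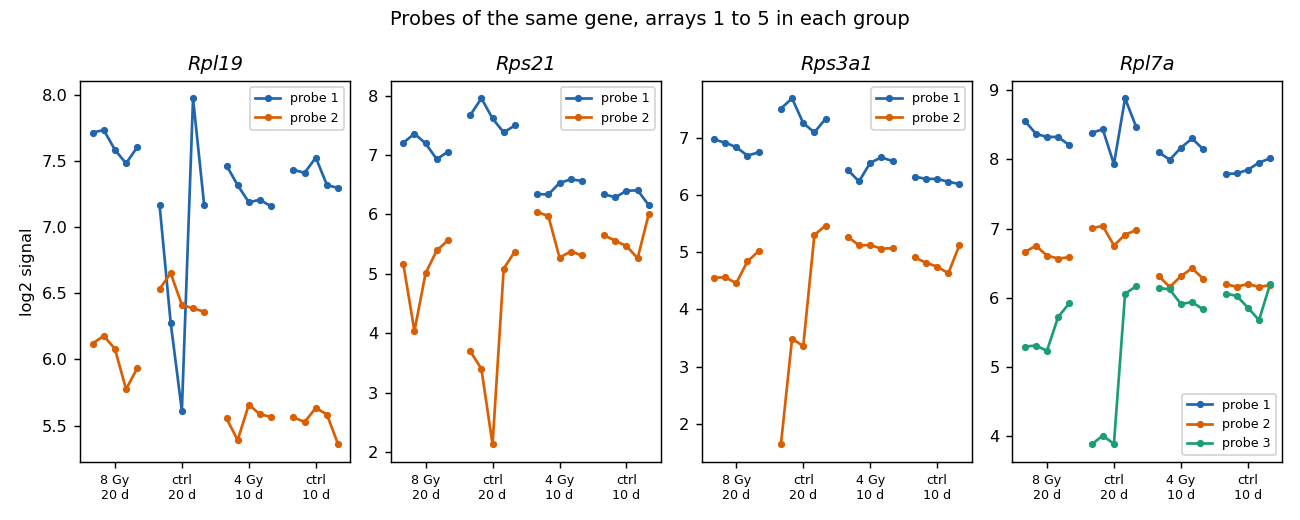
Log2 signal of every probe of Rpl19, Rps21, Rps3a1 and Rpl7a on arrays 1 to 5 of each group (array numbers carry no order). In the 20-day control group 1 probe of Rps21, Rps3a1 and Rpl7a was low on the arrays of slide 4 (arrays 1 to 3), and 1 of Rpl19 on arrays 2 and 3, while another probe of the same gene was not.

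The second probe of Rps21 read 3.70, 3.40, 2.13, 5.09 and 5.38 on the 20-day control arrays, against 7.67, 7.96, 7.62, 7.38 and 7.50 for its main probe. For Rps3a1 the second probe read 1.64, 3.49, 3.36, 5.30 and 5.47, and the third probe of Rpl7a 3.88, 4.00, 3.88, 6.06 and 6.16. In each case the low readings were those of slide 4, as the plot of probes of the same gene shows. Many ribosomal protein genes have processed pseudogene copies, and probe sequences were not used here, so cross-binding was not tested.

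In the 10-day set few ribosomal protein genes passed the test. With 4 Gy serum 1 member rose and 2 fell (3.90% of the members, against 6.00% of all genes tested, of which 4.53% rose and 1.47% fell), with a median log2 change of 0.02 over the members and 0.00 over all genes. Against genes of equal brightness the median difference was 0.07, with 47 genes above and 30 below.

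Rps19 had 2.32, 2.22, 2.62, 2.70 and 2.59 with 4 Gy serum, against 2.06, 1.90, 2.07, 2.14 and 2.10 with control serum of the 10-day set. The groups did not overlap and the gene rose by 0.44 ± 0.11 (SE, adjusted p = 0.0222). Rpl3, near the site where peptide bonds are formed, had 7.64, 7.34, 6.87, 6.94 and 6.87, against 7.68, 7.71, 7.71, 7.48 and 7.38. Its change was -0.46 ± 0.13 (SE, adjusted p = 0.0425), with the 3 low arrays on slide 3. Rps15a of the small subunit had 7.12, 7.07, 6.62, 6.63 and 6.63 with 4 Gy serum, against 7.33, 7.38, 7.31, 7.09 and 6.99, a change of -0.40 ± 0.11 (SE, adjusted p = 0.0395). The groups of both genes overlapped.

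None of the 3 calls held without the 4 Gy arrays of slide 3 (log2 changes of 0.22, -0.10 and -0.13 for Rps19, Rpl3 and Rps15a), and in that fit, with fewer arrays, 0 of all genes passed. Leaving out control array 1 or 2, or 4 Gy array 3, 4 or 5, also ended all 3, with adjusted p of Rps19 between 0.0502 and 0.0851. Slide 2 held 2 arrays of 4 Gy serum and 1 of control serum. Within it, 75 of the 77 genes were higher with 4 Gy serum, with a median of 0.11, where 51.6% of all genes and 124 of the 158 genes of similar brightness were higher. The control array of slide 2 was itself low for the members and for genes of similar brightness. Of the 77 members 16 were higher on it than on the slide 1 controls, with a median difference of -0.10. Of the 158 genes of similar brightness 37 were higher, with a median of -0.09, and of all genes 49.8% were. A single control array gives these slide 2 values no replicate check.

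The 2 responses were compared by the interaction term, the response to 8 Gy serum minus the response to 4 Gy serum. Here 24 members were lower and 2 higher (33.8% of the members, against 34.2% of all genes, of which 22.0% were lower and 12.2% higher), with a median of -0.19 over the members and -0.11 over all genes. The share was again near the background. Small subunit genes gave 15 lower and 1 higher of 31, and large subunit genes 9 lower and 1 higher of 46. Rps19 differed most, by -1.48 ± 0.15 on the log2 scale (SE, adjusted p = 2.26e-06), having fallen by 1.05 with 8 Gy serum and risen by 0.44 with 4 Gy serum. Rpl29 (-0.84), Rps10 (-0.84), Rps3a1 (-0.78) and Rps6 (-0.75) followed. Rpl3 was higher, at 0.57, and did not pass without the control arrays of slide 4 or the 4 Gy arrays of slide 3. Against genes of equal brightness the median difference was -0.04, with 0.05 for large and -0.29 for small subunit genes.

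Control serum of the 20-day set and of the 10-day set both came from unirradiated mice, and between them the ribosomal protein genes differed most. Of the 77 genes 53 were higher and 5 lower in the 20-day controls (75.3%, against 66.4% of all genes, of which 37.0% were higher and 29.4% lower). The median log2 difference was 0.59 over the members and 0.07 over all genes, and 0.28 against the 200 genes nearest in brightness, with 50 members above and 27 below. Against the 500 nearest genes it was 0.13. Before scaling, the members' median intensity averaged 147821 units in the 20-day and 154572 in the 10-day controls. The 75th percentile used for scaling averaged 916 and 1316. The difference is therefore one of level relative to that percentile, and raw intensity was not higher. The brightest members have few equals, and a member lay a median of 0.45 above the median level of its 200 neighbours. For the 44 members that lay at most 0.5 above theirs, the median difference was 0.50 between the controls and -0.09 for 8 Gy serum. No slide held arrays of both sets, so day, serum, culture and slide cannot be told apart in this contrast.

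Rps19 led again, with the 20-day control values above and the 10-day control values given with 4 Gy serum: 2.25 ± 0.11 on the log2 scale (SE, adjusted p = 1.28e-12), or 4.76-fold. Rpl31, near the exit of the peptide tunnel, had 3.41, 3.88, 3.90, 3.73 and 3.65 in the 20-day controls, against 1.87, 1.84, 1.91, 1.94 and 1.76 in the 10-day controls. The groups lay far apart, with a difference of 1.85 ± 0.09 (SE, adjusted p = 1.51e-12). Rpl29 (1.63), Rps10 (1.56) and Rpl27a (1.36) came next, and 18 members differed by 2-fold or more. The share of all genes that differed by as much was not counted. The 49 members without values of their own here had differences between -0.29 and 1.34. Of them 35 were higher and 0 lower, where 37.0% of all genes were higher and 29.4% lower. With 8 Gy serum the levels of Rpl31 were 3.07, 3.26, 3.03, 2.93 and 3.10, between both control groups.

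Many members had this order, and the share of all genes with it was not counted. In 52 members the 20-day control had the highest mean of the 4 groups. The mean with 8 Gy serum lay between that control and both 10-day groups in 51. The medians of the 158 genes of similar brightness had the same order: 6.98, 6.77 and, in the 10-day groups, 6.62 and 6.56. As the 20-day controls enter both contrasts, a fall with 8 Gy serum and a rise between the controls are not independent. Of the members 31 did both, among them every member that fell. The share of all genes that did both was not counted either.

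Of the ribosomal stalk, which recruits elongation factors, Rplp0 and Rplp1 were lower in the 20-day controls. Rplp0 had 7.63, 8.11, 7.48, 7.94 and 8.27 there, against 8.54, 8.49, 8.68, 8.44 and 8.51 in the 10-day controls, a difference of -0.65 ± 0.13 (SE, adjusted p = 0.000218). Its groups did not overlap, but its second probe read 0.20 higher in the 20-day controls (adjusted p = 0.0474 in the fit over probes). Rplp1 had -0.33 ± 0.09 (SE, adjusted p = 0.00295) and -0.15 without the arrays of slide 4 (adjusted p = 0.12), while Rplp2 had 0.09 ± 0.10 (SE, adjusted p = 0.465). No stalk gene passed with 8 Gy or with 4 Gy serum.

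Rps4x, the X-linked small subunit gene, had 7.40, 5.65, 6.03, 7.67 and 7.54 in the 20-day controls, against 7.75, 7.69, 7.75, 7.54 and 7.73 in the 10-day controls. Its difference of -0.83 ± 0.32 (SE, adjusted p = 0.027) rested on arrays 2 and 3, and was -0.09 without slide 4 (adjusted p = 0.744). Rps27a and Rpl37a, lower in the 20-day controls as well, had -0.04 and -0.01 without slide 4 and did not pass. Rpl11 stood at 5.93 on 20-day control array 1, against 7.54 to 8.10 on the other 4, and passed in none of the 4 comparisons.

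The direction of the members as a group depended on how the signals were scaled. With cyclic loess, which levels changes along the range of brightness, 29 members were higher and 10 lower with 8 Gy serum, with a median of 0.18. Of all genes 42.9% passed with it, 3869 of 8684 higher. Quantile normalization gave 14 higher and 22 lower, with a median of 0.0090, and scaling to the array median 1 higher and 42 lower, with a median of -0.30. Of all genes 42.3% passed with quantile normalization (3549 of 8553 higher) and 51.7% with scaling to the array median (2364 of 10454 higher). Scaling to the array median also moved the median of all genes, to -0.24 for 8 Gy serum and 0.20 between the controls. Between the controls cyclic loess gave 30 higher and 32 lower, with a median of -0.04, and quantile normalization 42 higher and 14 lower. Of all genes 65.5% and 64.8% passed there, in the same order. The interaction term gave 20 higher and 10 lower with cyclic loess, and 5 higher and 17 lower with quantile normalization. There 32.3% and 31.0% of all genes passed. For 4 Gy serum both scalings gave 2 higher and 2 lower, where 6.52% and 6.97% of all genes passed. Of the 35 members called for 8 Gy serum, 14 were called in the same direction with cyclic loess and 0 in the opposite one. Of the 58 called between the controls, 35 were called in the same direction and 9 in the opposite one.

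**Figure D5:**
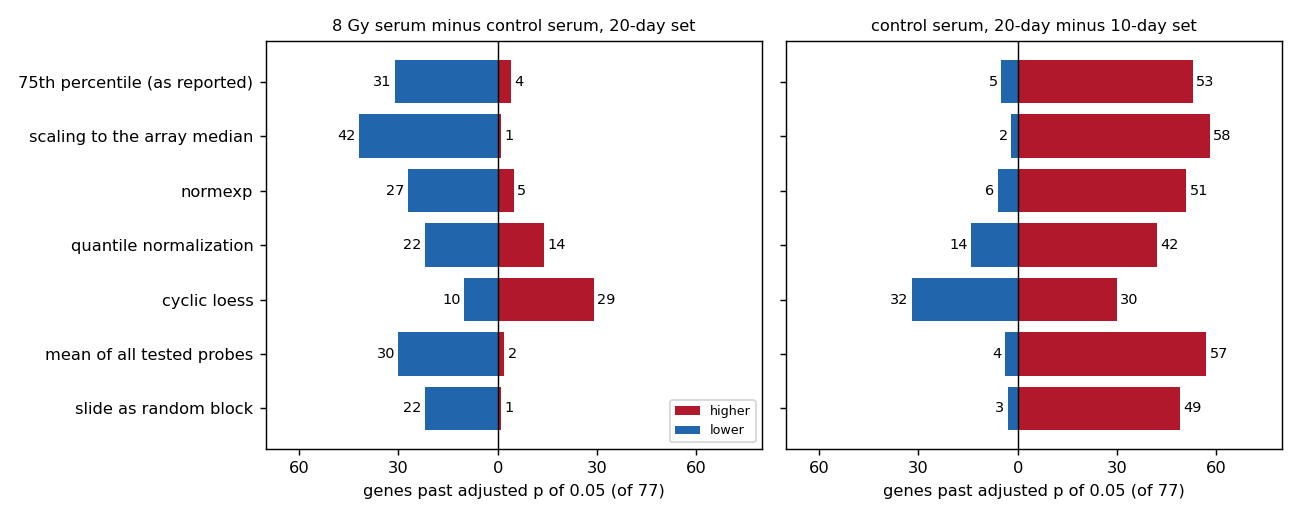
Number of the 77 ribosomal protein genes higher (right bars) and lower (left bars) at an adjusted p of 0.05, for 8 Gy serum against control serum of the 20-day set (left panel) and for the 20-day against the 10-day controls (right panel), under 7 ways of processing. With cyclic loess more members were higher than lower for 8 Gy serum, 29 against 10, where 42.9% of all genes passed.

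The remaining ribosomal proteins and the paralogs were measured beside the members. Fau, made as a ubiquitin-like fusion with a small subunit protein, fell by 0.34 with 8 Gy serum (adjusted p = 0.0146) and was 0.66 higher in the 20-day controls. Rack1, a scaffold on the small subunit, passed in none of the comparisons. Of the 5 paralogs tested, Rps27l, known as a p53 target in human cells, rose by 0.98 ± 0.33 with 8 Gy serum (SE, adjusted p = 0.0201), with an SD of 1.10 over the 20-day control arrays. Rpl22l1 was 1.10 higher in the 20-day controls (adjusted p = 1.15e-07). Rpl7l1, Rpl36al and Rpl39l passed in none.

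Mitochondrial ribosomal protein genes serve the separate ribosome of the mitochondrion. With 8 Gy serum 48 of 78 fell and 2 rose (64.1% called, against 46.0% of all genes), with a median of -0.35. Mrpl22 fell by 0.84 (adjusted p = 1.11e-08) and Mrps14 by 0.69 (adjusted p = 7.57e-08), while Mrps27 rose by 0.31 (adjusted p = 0.01). Between the controls 70 were higher and 0 lower (89.7% called, against 66.4% of all genes), with a median of 0.94. None passed with 4 Gy serum. They were dimmer, with a median level of 2.79 against 7.10 for the cytosolic genes.

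Of the 17 genes for elongation factors and other messages of the TOP kind, 3 rose and 4 fell with 8 Gy serum (41.2% called, against 46.0% of all genes). Eef2, which moves the ribosome along the message, rose by 0.66 (adjusted p = 1.61e-06), and Eef1a1, which delivers transfer RNA, fell by 0.60 (adjusted p = 6.15e-05). Of 38 ribosome biogenesis factors 4 rose and 11 fell (39.5% called, against the same 46.0%), with a median of 0.01. Fbl, the methyltransferase of ribosomal RNA, fell by 0.69 (adjusted p = 6.56e-05).

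All 15 fibroblast markers were above background on all 20 arrays. The log2 of their summed signal, in which bright markers weigh most, ran from 10.3 to 10.4 with 8 Gy serum and 10.2 to 10.5 with control serum of the 20-day set. It ran from 10.4 to 10.6 with 4 Gy serum and 10.5 to 10.6 with control serum of the 10-day set. Single fibroblast markers differed. With 8 Gy serum 4 were higher and 2 lower, where 17.3% of all genes were higher and 28.8% lower. In the 20-day against the 10-day controls 3 were higher and 10 lower, where 37.0% of all genes were higher and 29.4% lower. Macrophage markers moved with the set. The log2 of their summed signal over 14 genes ran from 5.23 to 5.51 with 8 Gy serum and 5.20 to 5.74 in its controls. With 4 Gy serum it ran from 1.08 to 1.37, and from 0.67 to 1.15 in its controls. All 14 were higher in the 20-day than in the 10-day controls, where 37.0% of all genes were higher. With 8 Gy serum 4 of the 14 were lower and 0 higher, where 28.8% of all genes were lower. With 4 Gy serum 3 were higher and 0 lower, where 4.53% of all genes were higher. The interaction term gave 6 lower and 0 higher, where 22.0% of all genes were lower. Of the 5 adipocyte genes tested, 5 were higher between the controls and 3 lower with 8 Gy serum. Of the 5 muscle genes tested, 5 were lower between the controls. Between the controls, 3 of 7 epithelial, 1 of 5 endothelial and 1 of 4 neural genes tested were higher. Of the same lists 2, 3 and 2 were lower. These counts stand against the same shares of all genes as above. Pecam1, Tie1, Cldn5, Lep, Ckm, Nefl and Snap25 were above background on no array. Fewer cells of a type and less RNA per cell cannot be told apart in such bulk RNA, and the part of other cells in the members' differences was not tested.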

How the data were processed

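RNA of 20 samples was hybridised to one-colour Agilent arrays. The deposited scanner files, made with Feature Extraction 10.5.1.1 per the file headers (the submitters' processing notes name 11.0), hold background-corrected intensity and other values, the quality flags. The authors' value table holds log2 values of the same arrays and was used as an alternative (correlation with the scanner values 0.994 or higher on every array). Probe accessions were named through RefSeq (GRCm38.p6), which gave 24844 named probes.

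Processed intensities were taken as log2 values minus the array's 75th percentile. Tested probes had the well-above-background flag on every array of 1 or more groups, and the brightest probe stood for its gene. Group means were fitted over all 20 arrays with limma 3.58.1 in R 4.3.3 (two-sided, Benjamini-Hochberg over 20231 genes, threshold 0.05). Array number limits the precision. The fit was tested on simulated data. Members and gene lists were chosen with earlier results of these data known, so a list's counts are a description and no set test was run. Genes were named by rule: fixed examples, the 5 highest and 5 lowest called changes per comparison, the brightest and dimmest members and those with opposing probes, and for other lists at most the 2 smallest p per direction; probes of Rps3a1 were added after their values were seen. Some genes that the rule names are not reported here. Alternatives were other scalings, normexp (offset 50), no filter on dim probes, the mean of probes, slide and replicate blocks, the authors' table, fits of the compared groups alone and single arrays left out. Leaving out the arrays of slides 3, 4 or 5 was chosen after seeing the data.

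Same-numbered arrays of both groups of the 20-day set deviated together (correlations 0.14 to 0.41 over all genes, all 5 pairs above 0.1). The main fit did not pair them, so its p-values are unpaired. A block for the replicate number was fitted only as an alternative. For irradiated arrays 2, 3 and 4 of the 20-day set, the best-correlated control array bore another number (3, 2 and 5). A pairing by number would come from the data, and same-numbered arrays also sit alike on their slides. In the 10-day set the correlations ran from -0.05 to 0.18 and the numbers were not taken to pair arrays. The alternative with the block was nevertheless run for the 10-day comparison as well.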

Additional observations from a re-analysis of the deposited data

Results flagged for a closer look

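Single arrays stood apart from the other 4 of their group for 6 named members and for the members' median, 7 of 116 groups checked, where chance gives about 1 in 20. They were Rpl27a at 4.84 (others 5.08 to 5.16) and Rps15a at 7.34 (others 7.57 to 7.63) on 8 Gy array 4. On the 20-day controls they were Rpl11 at 5.93 on array 1 (others 7.54 to 8.10), Rpl14 at 3.97 on array 2 (others 3.33 to 3.51) and the median of all members at 7.10 on array 3 (others 7.36 to 7.44). On 4 Gy array 2 it was Rpsa at 5.29 (others 5.49 to 5.53), and on 10-day control array 5 Rps10 at 5.28 (others 5.53 to 5.61).

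The response to 8 Gy serum differed from the response to 4 Gy serum by the interaction term in 11 named members. The difference on the log2 scale was -1.48 for Rps19, -0.84 for Rpl29, -0.84 for Rps10, -0.78 for Rps3a1, -0.75 for Rps6, -0.67 for Rpl31, -0.66 for Rps23 and -0.65 for Rpsa. It was -0.63 for Rps21, -0.53 for Rpl27a and 0.57 for Rpl3. With the mean of its probes the difference of Rps21 turned to 0.23 and that of Rps3a1 was -0.11, and neither passed. Without the 20-day control arrays of slide 4 the difference of Rpl3 (0.49) did not pass.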

How the results depend on the processing

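Members called for 4 Gy serum numbered 3, and 1 without a filter on dim probes, 0 with slide as a random block, 0 without the 4 Gy arrays of slide 3 and 6 when the 2 groups were fitted alone. Of all genes 6.00%, 2.48%, 0.00494%, 0.00% and 12.8% passed in these fits. For 8 Gy serum they numbered 35, and 23 with slide as a random block and 23 in the fit of those groups alone. Of all genes 46.0%, 29.2% and 35.7% passed there. For the interaction term they numbered 26, and 15 with the slide block, 17 without the 4 Gy arrays of slide 3 and 40 without the control arrays of slide 5. The shares of all genes were 34.2%, 17.9%, 23.2% and 38.8%. The members' median change for 8 Gy serum was -0.30 with scaling to the array median, 0.0090 with quantile normalization and 0.18 with cyclic loess. For the interaction it was -0.040 with quantile normalization and 0.13 with cyclic loess. Between the controls it was 0.72, 0.29 and -0.044 under the 3 scalings, and against the 500 nearest genes 0.13. Leaving out 1 array at a time gave 0 to 6 called members for 4 Gy serum (medians -0.01 to 0.04), 28 to 39 for 8 Gy serum (-0.23 to -0.12), 21 to 29 for the interaction (-0.22 to -0.14) and 55 to 62 between the controls (0.55 to 0.64). Of all genes 1.10% to 10.5%, 42.3% to 48.2%, 30.2% to 38.6% and 63.1% to 68.0% passed, in the same order.

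Directions turned with cyclic loess for 8 Gy serum in Rpl5 (0.17), Rpl7a (0.34), Rplp2 (0.35) and Rps15a (0.071), and for the interaction in Rpl5 (0.27). Between the controls they turned in Rpl10 (-0.23), Rpl3 (-0.51), Rpl5 (-0.24), Rpl7a (-0.19), Rplp2 (-0.64), Rps15a (-0.042), Rps18 (-0.70) and Rps3 (-0.20), and in Rpl10 also with quantile normalization (-0.079). Rps18 turned with normexp for 8 Gy serum (-0.14). With the mean of probes Rps21 (0.31) and Rps3a1 (0.15) turned for 8 Gy serum, and Rps21 for the interaction (0.23) and between the controls (-0.17). The cause was not tested. With the replicate number as a block the members called were 4 for 4 Gy serum, 35 for 8 Gy serum, 26 for the interaction and 58 between the controls, and no call of a named member changed. Of all genes 8.17%, 47.3%, 34.7% and 67.0% passed with that block, in the same order.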

Other observations

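Of 12 genes of the RNA polymerase I machinery, which makes ribosomal RNA, 2 rose and 3 fell with 8 Gy serum (41.7% called, against 46.0% of all genes). Taf1c, a subunit of the selectivity factor, rose by 0.48 (adjusted p = 4.33e-05, limma), and Rrn3, the initiation factor, fell by 0.66 (adjusted p = 2.51e-05). Of 12 genes that control ribosomal protein synthesis, 1 rose and 4 fell (also 41.7%, against 46.0%). Rps6kb2, an S6 kinase, rose by 0.66 (adjusted p = 2.03e-06), while Myc fell by 0.89 (adjusted p = 2.26e-06) and Rheb, the activator of mTOR, by 0.62 (adjusted p = 2.48e-06). With 4 Gy serum 1 gene of both lists passed, Taf1a, which fell by 0.42 (adjusted p = 0.0219).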
